A study of Saccharomyces cerevisiae with 41 samples.

Results

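RNA of budding yeast (Saccharomyces cerevisiae) carrying a deletion of RRP6 was compared with RNA of a control strain after depletion of ribosomal RNA. The comparison rests on 4 of the 41 libraries of the series, chosen by their labels alone: rrp6 deletion replicates 1 and 2 and control replicates 1 and 2. The series asked how mutants of the RNA exosome subunits CSL4, DIS3 and RRP6, and of the nuclear factors ENP1 and SRM1, change RNA levels. All strains are labelled as having the BY4741 background, grew at 25 °C and spent 90 min at 37 °C before harvest, the rrp6 deletion and the control included. The deletion strain is labelled with no allele beyond the deletion, and the control with no genotype beyond its background. Strains labelled dis3-1 (n = 2), csl4-ph (n = 3) and enp1-1 (n = 2) were used for contrasts with other mutants. They were prepared in the same way apart from a label conflict for csl4-ph replicate 1. These contrasts show where the rrp6 deletion differs from other mutants. The srm1-ts libraries were fitted too but not compared. The other 4 strains named below are the control, dis3-1, csl4-ph and enp1-1. The labels do not say whether replicates came from separate cultures, so p-values measure the spread between these libraries, which may be technical.

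Rrp6 is a 3′ to 5′ exoribonuclease found in the nuclear form of the RNA exosome, where it works beside the core ribonuclease Dis3. With the TRAMP complex, which adds short oligo(A) tails, and the Nrd1-Nab3-Sen1 complex, which ends transcription of short noncoding units, it trims the 3′ ends of small nucleolar RNAs (snoRNAs) and of 5.8S ribosomal RNA and removes cryptic unstable transcripts (CUTs). Nrd1-unterminated transcripts (NUTs) are units that run on when Nrd1 is missing, and many begin at snoRNA genes.

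RRP6 itself (YOR001W, chrXV:326832-329033 in the sacCer3, R64 build, counted from 1) stood at 39.9 and 38.1 CPM in the rrp6 deletion libraries and at 189.7 and 179.7 CPM in the control. CPM here is the estimated count per 1000000 after scaling between libraries. The fall was a log2 fold change of −2.24 ± 0.053 (adjusted p = 1.2e-09, edgeR quasi-likelihood test), and 21.1% of the control level remained. The value after every ± here is an approximate SE, the absolute log2 fold change divided by the square root of the test's F statistic. Genes missing from a strain read much lower: MET17, a marker gene of methionine synthesis that BY4741 lacks, was at 1.01 and 0.431 CPM in the rrp6 deletion and 548 and 530.2 CPM in the control. LYS2, a gene of lysine synthesis that BY4741 retains, was at 449.7 and 462 CPM in the rrp6 deletion and 0.769 and 0.313 CPM in the control. The control thus read as the reverse of BY4741 at both markers, and it also held transcripts of alpha-specific mating genes, although BY4741 is an a strain. Groups are named by their labels throughout. The source of the remaining RRP6 reads was not tested.

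The 4 libraries held 12885166 to 18406811 estimated counts, and 3 counts, the floor used for a feature with none, are 0.179 to 0.313 CPM. Of 11587 features 10564 passed a filter on low counts. The control had more RNA from chromosome III than the other strains. The median log2 fold change of ORFs on chromosome III was −1.27 against the control, beside −0.34 to −0.13 on the other chromosomes, and it was 0.18 against dis3-1, 0.17 against csl4-ph and 0.06 against enp1-1. Any fall of a chromosome III gene against the control therefore goes with this offset, whose part was not tested, and counts without that chromosome are given in the closing section. The feature names carry no strand, and reads of overlapping features were often given wholly to one of them, so features that overlap no other are given apart.

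**Figure D1:**
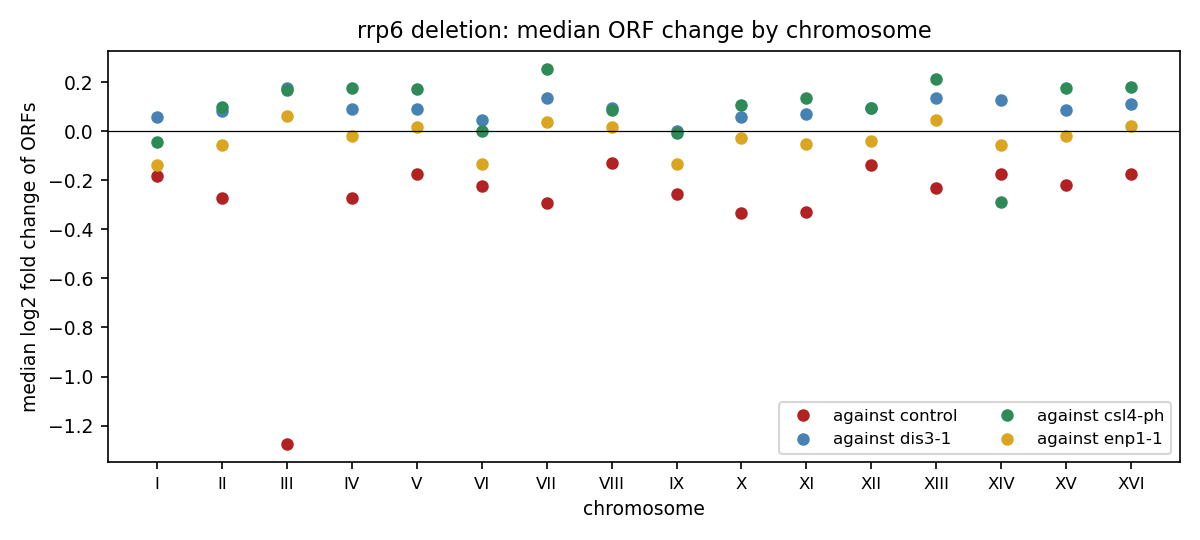
Median log2 fold change of ORFs on each chromosome (y axis) in the rrp6 deletion against the control and 3 other strains (colours). Against the control chromosome III lies at −1.27, apart from the other 15 chromosomes, and against the other strains it lies between 0.06 and 0.18.

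The sequences that follow the mature ends of 4 snoRNA genes are shown because NUTs that rose strongly run across these genes. Each line is the 100 bases after the mature RNA on the transcribed strand, from the RefSeq R64 genome, with capitals marking GTAA and GTAG, the core letters bound by Nrd1, and TCTT, the core bound by Nab3 (written as DNA; neighbouring matches may overlap).
snR45 (chrXVI:821904-822003, plus strand): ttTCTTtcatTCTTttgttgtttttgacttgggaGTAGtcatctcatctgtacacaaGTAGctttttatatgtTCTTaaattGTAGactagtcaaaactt
snR48 (chrVII:609697-609796, plus strand): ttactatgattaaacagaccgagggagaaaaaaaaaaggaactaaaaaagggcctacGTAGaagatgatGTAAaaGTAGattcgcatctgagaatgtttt
snR81 (chrXV:234547-234646, plus strand): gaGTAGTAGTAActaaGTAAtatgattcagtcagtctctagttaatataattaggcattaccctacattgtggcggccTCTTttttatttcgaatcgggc
snR58 (chrXV:135988-136087, minus strand): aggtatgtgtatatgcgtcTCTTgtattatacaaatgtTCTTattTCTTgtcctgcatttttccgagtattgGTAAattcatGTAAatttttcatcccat
Windows of this length held at least 1 Nrd1 core and at least 1 Nab3 core after 46 of the 76 snoRNAs (60.5%) and after 1507 of 5882 ORFs (25.6%). On the opposite strand the shares were 23.7% and 22.6%. A match is a description of the letters and no evidence of binding.

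Against the control 3224 features (30.5%) were higher and 3760 (35.6%) lower at an adjusted p under 0.05. Scaling on ORFs alone moved the median log2 fold change of all features from −0.01 to 0.22, and the split from 46.2% higher among calls to 64.9%, with 4577 higher and 2471 lower. Small changes of ORFs are therefore read relative to this shift, and counts under it are given for groups where they differ most.

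On features as deposited more of each noncoding class named here were higher than lower, and on the main scale more ORFs were lower than higher. Of 87 tested CUTs that overlap no other feature 67 were higher and 1 lower, with a median log2 fold change of 2.30. Among those called higher with at least 10 CPM on average, only 1 of the CUTs named below rose by more than this median. The median thus rests mostly on CUTs of low level. Over all CUTs, which mostly overlap ORFs, 328 of 735 were higher and 51 lower, with a median of 1.15 (1.02 with groups at 0 counts placed at the floor). Over all NUTs 672 of 1459 were higher and 322 lower, with a median of 0.31. For NUTs that overlap an ORF the balance turned when they were summed with overlapping features, from 518 higher and 320 lower to 507 and 592 (medians 0.19 and −0.06). Among NUTs that overlap no other feature 25 of 29 were higher and 0 lower, and among NUTs that overlap no ORF 154 of 212 were higher and 2 lower. The features named ST and those numbered with F or R, which the labels do not define, were higher in 225 of 667 and 515 of 1385 cases and lower in 93 and 194 (medians 0.24 and 0.35). Where they overlap no other feature, 36 of 60 ST features were higher and 5 lower, and 74 of 133 F or R features were higher and 18 lower. ORFs that overlap no other feature were higher in 747 and lower in 1805 of 3154, with a median of −0.27, which turned to 0.04, with 1337 higher and 1159 lower, when scaled on ORFs.

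**Figure D2:**
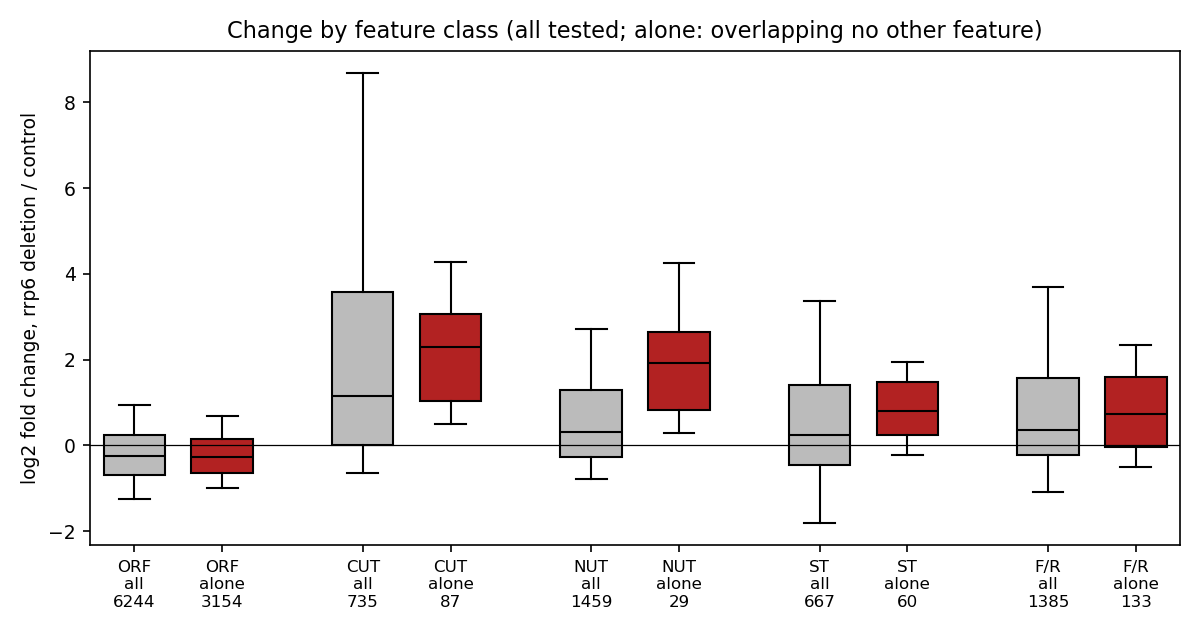
Log2 fold change of rrp6 deletion against control (y axis) for 5 feature classes, all tested features in grey and those overlapping no other feature in red, with the number of features under each box. Boxes span the quartiles with the median as a line and whiskers reach from the 10th to the 90th percentile; CUTs overlapping no other feature have a median of 2.30 and ORFs of −0.27.

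The NUTs that cover a snoRNA or small nuclear RNA gene were higher in 49 of 55 cases and lower in 2, both on chromosome III, with a median log2 fold change of 2.11. NUT0805 (chrXVI:821737-822557) runs past snR45, an snoRNA of the box C/D class, and stood at 382 and 400.3 CPM in the rrp6 deletion and 5.04 and 4.70 CPM in the control, a log2 fold change of 6.32 ± 0.051. NUT0275 (chrVII:609410-610473), across snR48, was at 197 and 219.8 CPM and 2.56 and 2.93 CPM (6.25 ± 0.12). In both cases every rrp6 deletion library lay far above every control library. NUT0692 (chrXV:234191-234762), across snR81, an H/ACA snoRNA, was at 73.7 and 60.9 CPM against 1.20 and 1.15 CPM (5.83 ± 0.16). NUT1395 (chrXV:135929-136299), across snR58 and named after its values were seen, was at 43.7 and 48.5 CPM against 1.37 and 1.67 CPM (4.93 ± 0.17). These spans include the snoRNA gene itself, so reads of the mature RNA and of its extension cannot be told apart. When each NUT was summed with the features it shares most bases with, 41 of the 55 were higher and 9 lower, with a median of 0.72, the snoRNA included. The summed log2 fold changes were 2.87 for NUT0805, 5.93 for NUT0275, 3.28 for NUT0692 and 5.02 for NUT1395.

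NUT0009 (chrI:227574-229274), across ORFs at the right end of chromosome I, was at 89.4 and 89.6 CPM in the rrp6 deletion, 1.45 and 1.88 CPM in the control and 16.6 and 19.3 CPM in dis3-1. It was 5.75 ± 0.18 above the control and 2.32 ± 0.13 above dis3-1 on the log2 scale (adjusted p = 6.3e-07 for the latter, edgeR). The CUT that overlaps no other feature with the largest rise among those of at least 10 CPM lay at chrXII:109242-109666 and stood at 22.4 and 20.9 CPM against 2.82 and 2.51 CPM (3.02 ± 0.086). The next of these CUTs, at chrXIV:716434-716706 downstream of snR49, was at 49.8 and 56.4 CPM against 24.0 and 25.8 CPM. The groups did not overlap at either CUT. NUT1123 (chrVIII:532509-533548), the NUT overlapping no other feature with the largest such rise, was at 28.2 and 25.1 CPM against 4.87 and 4.60 CPM (2.49 ± 0.11). These features overlapping no other were named by a form of the rule added after the values were seen.

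**Figure D3:**
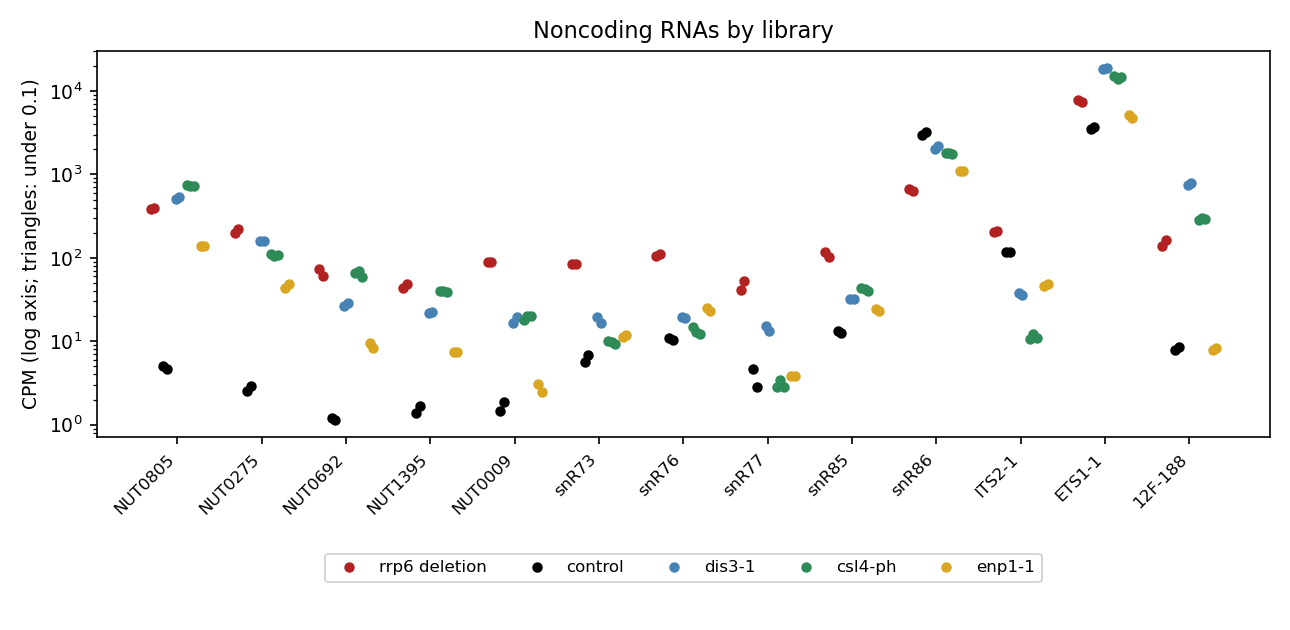
CPM on a log axis (y axis) of 13 noncoding features (x axis) in each library of 5 strains, 1 point a library. The 4 NUTs across snoRNA genes at the left lie between 43.7 and 400.3 CPM in the rrp6 deletion and between 1.15 and 5.04 CPM in the control.

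More snoRNA entries were higher than lower. Reads of the mature RNA and of longer precursors cannot be told apart at these entries. Of 57 tested snoRNAs 30 were higher and 7 lower (median 0.69), beside 30.5% and 35.6% of all features. Box C/D snoRNAs, which guide methylation of ribosomal RNA, were higher in 19 of 28 tested of 47 and lower in 1, and H/ACA snoRNAs, which guide pseudouridylation, were higher in 11 of 29 and lower in 6. The H/ACA count depends on the counting: it was 19 higher and 4 lower with scaling on ORFs, and 23 and 3 when summed with overlapping features (median 0.73 against 0.21). In a polycistronic unit on chromosome XIII, from which several box C/D snoRNAs are cut, snR72, snR73, snR76 and snR77 were higher, while snR74 (1.07 ± 0.56) and snR75 (−0.55 ± 0.43) were not called; snR72, snR74 and snR75 were named after their values were seen. snR73, which overlaps another feature, was at 84.5 and 85.4 CPM against 5.64 and 6.79 CPM (3.78 ± 0.20). Its neighbour snR76 was at 105 and 110.0 CPM against 10.9 and 10.4 CPM (3.34 ± 0.099), and snR77 at 41.3 and 52.7 CPM against 4.70 and 2.82 CPM (3.63 ± 0.26). All 3 lay above the control in both libraries. The H/ACA snoRNA snR85 rose by 3.07 ± 0.086, from 13.3 and 12.5 CPM to 116 and 101 CPM.

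Of the 7 falls 6 were of H/ACA snoRNAs, and the largest were of entries that share their span with other features. The long snR86 was at 672 and 640.5 CPM in the rrp6 deletion and 2980 and 3250 CPM in the control (−2.25 ± 0.050), and snR84 at 252 and 278 CPM and 694 and 688 CPM (−1.38 ± 0.054). Of the 5 largest falls, all of features that overlap another, 3 were called lower when summed, snR86 (−1.70), snR84 (−0.77) and snR43 (−0.62, on chromosome III). snR44 was then at 0.00, not called, and snR190 was called higher, at 1.02. The RNA subunit of RNase MRP, NME1, was at 973 and 1093 CPM against 834 and 773 CPM (0.36 ± 0.11). Of the 6 spliceosomal RNA entries snR6, the U6 RNA, rose (12.96 and 11.2 CPM against 3.25 and 2.40 CPM, 2.09 ± 0.27), while U2 (LSR1) stood at 15937 and 16166 CPM against 17745 and 18290 CPM and U1 (snR19) at 7264 and 6858 CPM against 7873 and 8579 CPM. The small log2 falls of U2 (−0.17 ± 0.031) and U1 (−0.22 ± 0.051) turned to rises of 0.15 and 0.09 with scaling on ORFs. Short snoRNAs are poorly covered: 19 of the 47 box C/D entries did not pass the filter on low counts.

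Ribosomal RNA precursor spacers rose, 5 of the 10 rRNA entries being higher and 0 lower. The second internal spacer ITS2-1 (chrXII:455182-455413), which lies between 5.8S and 25S rRNA and whose 5.8S-proximal part Rrp6 trims, was at 204 and 209 CPM in the rrp6 deletion, 118 and 117 CPM in the control and 38.3 and 35.5 CPM in dis3-1. It was 0.82 ± 0.085 above the control and 2.48 ± 0.092 above dis3-1 on the log2 scale. The external spacer ETS1-1 (chrXII:457733-458432), removed from the 5′ end of the precursor, was at 7749 and 7405 CPM, 3487 and 3654 CPM and 18121 and 18684 CPM in the same order, 1.09 ± 0.054 above the control and −1.28 ± 0.055 relative to dis3-1. The spacer ITS1-1 rose by 0.89 ± 0.055, from 117 and 123 CPM to 215 and 228 CPM. Relative to dis3-1 the rrp6 deletion thus had more ITS2-1 and less ETS1-1. The feature 12F-188 (chrXII:460075-460602), in the nontranscribed spacer of the ribosomal DNA, was at 139 and 163 CPM against 7.86 and 8.46 CPM in the control, 747 and 797 CPM in dis3-1 and 7.88 and 8.41 CPM in enp1-1. It was 4.21 ± 0.11 above the control and −2.36 ± 0.067 relative to dis3-1. The ribosomal DNA is a repeated locus and mature rRNA was depleted, so these entries are uncertain as levels.

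Among messenger RNAs, the transcripts of several exosome and cofactor genes were higher. Of the 10 other core exosome genes listed 5 were higher and 1 lower (median 0.09), beside 30.5% and 35.6% of all features. With scaling on ORFs 8 were higher, beside 43.3% of all features. DIS3, the core ribonuclease, was at 392 and 389.8 CPM against 268 and 261 CPM (0.56 ± 0.027). RRP4, a cap subunit, was at 134 and 126 CPM against 72.6 and 74.7 CPM (0.82 ± 0.051), and CSL4, another cap subunit, at 95.8 and 98.0 CPM against 68.8 and 66.6 CPM (0.52 ± 0.059). These 3 were higher in both libraries. Of the ring and cap subunits RRP40 and RRP42 rose by 0.13 ± 0.038 and 0.23 ± 0.042. RRP45, RRP46, SKI6 and MTR3 had log2 fold changes of 0.04, −0.06, −0.01 and −0.73, none of them called. RRP43, a ring subunit on chromosome III, was −0.77 ± 0.038 relative to the control and 0.66 ± 0.040 above dis3-1.

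The helicase of TRAMP, MTR4, was at 503 and 498 CPM against 377 and 379.9 CPM (0.40 ± 0.022). AIR1, its zinc-knuckle RNA-binding subunit, rose most among cofactors that overlap no other feature, at 82.4 and 74.7 CPM against 35.7 and 34.6 CPM (1.16 ± 0.056), and was 0.91 ± 0.054 above dis3-1. Its paralog AIR2 rose by 0.46 ± 0.060, the helicase SEN1 of the Nrd1 complex by 0.29 ± 0.024 and the exosome cofactor MPP6 by 0.38 ± 0.11. The poly(A) polymerase gene TRF5, which overlaps another feature, was at 24.8 and 23.7 CPM against 2.31 and 2.30 CPM (3.39 ± 0.15, or 1.05 when summed with it). PAP2, NAB3 and LRP1, the Rrp6-binding protein also known as Rrp47, stood at −0.05, 0.04 and 0.16, none of them called. NRD1, whose span lies within NUT0633, was at 0 to 0.37 CPM in the 4 libraries and is not read.

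HRP1 and DBP2, both known to act on their own expression, rose. HRP1, encoding a subunit of cleavage factor I whose gene is subject to Nrd1-dependent attenuation, was at 631 and 630.3 CPM against 175 and 169 CPM in the control (1.87 ± 0.036), 398 and 402 CPM in dis3-1 and 491 and 462 CPM in enp1-1. It was 0.66 ± 0.034 above dis3-1. DBP2, a DEAD-box helicase gene with a long intron through which it regulates itself, was at 1456 and 1432 CPM against 318 and 333 CPM (2.15 ± 0.028) and 0.57 ± 0.026 above dis3-1. PCF11, another attenuated gene, rose by 0.46 ± 0.051. ADE12, a purine synthesis gene, had a log2 fold change of −0.69 ± 0.028, called lower. In all, 3 of the 10 tested members of the attenuated list were higher and 4 lower. These shares are near the 30.5% and 35.6% of all features, and DBP2 is not on the list. The other tested members were RPL9B (0.13 ± 0.044, called higher), IMD3 (−0.57 ± 0.025), URA2 (−2.57 ± 0.57), IMD2 (−4.53 ± 0.93) and 3 not called, NRD1, TIS11 and URA8, which overlap other features and were at or near 0. IMD2 and URA2 also overlap other features, and summed with them their log2 fold changes were −0.34 and −0.47.

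**Figure D4:**
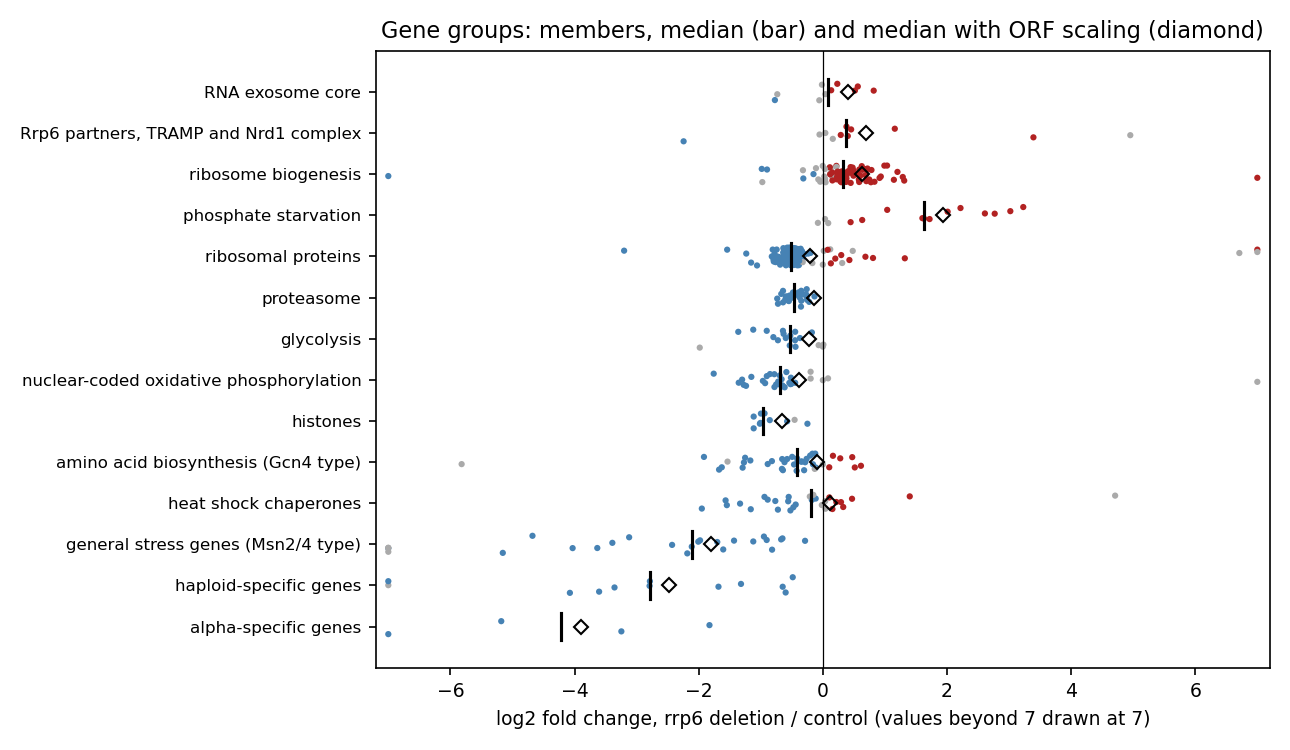
Log2 fold change of rrp6 deletion against control (x axis) for the members of 14 gene groups, 1 point a gene, red called higher, blue called lower, grey not called, with the group median as a bar and the median under scaling on ORFs as a diamond. Ribosome biogenesis and phosphate genes lie mostly to the right of 0, and general stress, haploid-specific and alpha-specific genes to the left.

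Genes for making ribosomes and genes for ribosomal proteins moved apart. Of 77 tested ribosome biogenesis genes, which code for factors that assemble the subunits, 57 were higher and 5 lower (median 0.32). Without chromosome III 57 of 74 were higher and 2 lower. All features were higher in 30.5% and lower in 35.6% of cases, or 43.3% and 23.4% with ORF scaling. DBP8, a helicase of the small subunit pathway, was at 125 and 121 CPM against 49.3 and 49.5 CPM (1.31 ± 0.036), and UTP18 of the small subunit processome at 159 and 155 CPM against 66.6 and 70.1 CPM (1.20 ± 0.032). Both genes were above the control in each library. DIP2, another processome gene, rose by 0.93 ± 0.025, and the ENP1 gene, which acts in 40S maturation, was at 180.2 and 175 CPM against 117 and 122 CPM (0.57 ± 0.026). Of 137 tested ribosomal protein genes 9 were higher and 119 lower (median −0.51), and 103 were lower with scaling on ORFs. RPL3 was at 2821 and 2684 CPM against 5818 and 5659 CPM (−1.06 ± 0.045) and RPL4B at 562 and 558 CPM against 1320 and 1313 CPM (−1.23 ± 0.047). RPL18B went the other way, at 519 and 512 CPM against 212 and 200.3 CPM (1.32 ± 0.030). Members with an intron fell in 79 of 89 cases and those without in 40 of 48, at medians of −0.50 and −0.53. The list was taken by gene symbol and so holds RPP1, a protein of RNase P and RNase MRP and no ribosomal protein, which is 1 of the 9 higher (0.69 ± 0.12) and was noticed after its values were seen. Paralogs of ribosomal proteins share sequence, and division of their reads is uncertain.

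Genes of the general stress response, induced by Msn2 and Msn4, were lower. Of 25 tested members 22 fell and 0 rose, beside 35.6% and 30.5% of all features. The median log2 fold change was −2.11 (−2.11 with groups at 0 counts placed at the floor). Many members overlap another feature. The 8 that overlap none were all lower, with a median of −1.84, and 26 of 26 were lower when summed with overlapping features. TPS2, a trehalose synthesis enzyme, was at 301 and 287 CPM against 1192 and 1169 CPM (−2.01 ± 0.029). HXK1, a hexokinase, was at 201 and 202 CPM against 2102 and 2123 CPM (−3.39 ± 0.030), though it overlaps another feature. DDR2, a small stress-induced protein that overlaps nothing, was at 1.19 and 1.36 CPM against 44.9 and 46.4 CPM (−5.16 ± 0.096). The groups did not overlap at these 3 genes, and relative to dis3-1 their log2 differences were −0.91 ± 0.029, −2.50 ± 0.029 and −4.37 ± 0.097. Against dis3-1 19 of 25 members were lower and 2 higher, beside 21.4% and 26.1% of all features. HXT7, a glucose transporter gene that is on when glucose is low, was at 118 and 115 CPM against 1396 and 1387 CPM (−3.58 ± 0.047). HXT1, on when glucose is high, was at 233 and 219.8 CPM against 69.6 and 68.8 CPM (1.71 ± 0.066). Both overlap other features or have close paralogs. The list of hexose transporters was mixed, with 4 of 13 tested higher and 6 lower (median −0.24), or 5 and 5 with ORF scaling. Its shares of 30.8% higher and 46.2% lower stood beside 30.5% and 35.6% of all features. HXT7 and HXT1 are thus given as single genes and do not stand for the list.

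Phosphate genes rose. Of 15 tested members of the phosphate starvation list 12 were higher and 0 lower (median 1.63), beside 30.5% and 35.6% of all features. Among the 10 that overlap no other feature 7 were higher and 0 lower, with a median of 0.84. When members were summed with overlapping features the median was 1.04, with 12 higher and 0 lower. PHO84, the high-affinity transporter whose locus also gives an antisense RNA, was at 291 and 273 CPM against 43.2 and 39.3 CPM (2.77 ± 0.12). PHO89, a sodium-phosphate transporter, was at 85.8 and 81.8 CPM against 27.6 and 26.5 CPM (1.63 ± 0.061), and VTC3, of the polyphosphate polymerase complex, at 518 and 540.2 CPM against 177 and 171 CPM (1.60 ± 0.048). Each was above the control in both libraries. VTC4 rose by 1.04 ± 0.021. The acid phosphatase PHO5, named after its values were seen, rose by 2.22 ± 0.14, from 23.3 and 33.1 CPM to 134 and 126 CPM. The names carry no strand, so sense and antisense reads at PHO84 cannot be told apart. Against dis3-1 13 of 15 members were higher and 1 lower.

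Several housekeeping groups were lower, with fewer of their genes lower under scaling on ORFs. All features were lower in 35.6% and higher in 30.5% of cases, or 23.4% and 43.3% with ORF scaling. On the main scale all tested ORFs were lower in 49.5% and higher in 23.2% of cases. All 32 tested proteasome genes were lower (median −0.46), but with scaling on ORFs 18 were lower and 3 higher. RPN6, a lid subunit, was at 243 and 248 CPM against 336 and 341 CPM (−0.46 ± 0.026). Glycolysis genes fell in 15 of 19 cases and rose in 0, or 13 and 3 with ORF scaling. TDH1, for example, was at 706 and 689 CPM against 1532 and 1502 CPM (−1.12 ± 0.034). PFK1, phosphofructokinase, had a log2 fold change of −0.53 ± 0.022. Nuclear-coded genes of oxidative phosphorylation fell in 26 of 31 cases and rose in 0 (median −0.69), or 22 and 1 with ORF scaling. COX13, of cytochrome c oxidase, was at 50.6 and 48.1 CPM against 123 and 129 CPM (−1.35 ± 0.050) and SDH1, of succinate dehydrogenase, at 91.8 and 90.2 CPM against 215 and 214 CPM (−1.24 ± 0.047). Of 10 histone genes 9 were lower and 0 higher (median −0.97), or 8 and 1 with ORF scaling. Among the lower ones were HTB1 (377 and 361 CPM against 743 and 747 CPM, −1.01 ± 0.032) and HHT2 (419.6 and 410.5 CPM against 885 and 911 CPM, −1.11 ± 0.033). HTB1 was at 349.6 and 344 CPM in dis3-1 and 153, 149 and 147 CPM in csl4-ph.

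Amino acid and heat shock genes were mixed. Of 39 tested genes of the Gcn4 type 6 were higher and 29 lower, or 12 and 15 with ORF scaling, and HIS4, THR4 and ILV6 among them lie on chromosome III. ARO1, which lies on chromosome IV and makes aromatic amino acids, was at 594 and 591 CPM against 1334 and 1328 CPM (−1.17 ± 0.017). LYS20, a homocitrate synthase gene, was at 337 and 313 CPM against 85.7 and 74.9 CPM (2.01 ± 0.068), in strains that differ in LYS2. MET6, methionine synthase, was at 301 and 286 CPM against 1007 and 963 CPM (−1.75 ± 0.037), in strains that differ in MET17. The part of these 2 marker genes in either value was not tested. Of 30 heat shock chaperone genes 7 were higher and 17 lower, or 13 and 13 with ORF scaling. Beside the Gcn4 and heat shock lists, all features were higher in 30.5% and lower in 35.6% of cases, or 43.3% and 23.4% with ORF scaling. HSP104, the disaggregase, was at 726 and 696 CPM against 2126 and 2085 CPM (−1.57 ± 0.027), and KAR2, the chaperone of the endoplasmic reticulum, at 795 and 777 CPM against 1780 and 1733 CPM (−1.16 ± 0.032).

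Among the ORFs with the largest changes, 10 of the 10 largest falls had 0 counts in the rrp6 deletion and overlapped another feature, and when summed with it 6 were still lower and 4 were higher. They are not read as changes of a gene. Of the 10 largest rises 3 overlapped no other feature, LYS2, COS4 and YDR215C. COS4, a subtelomeric gene of the COS family, was at 60.6 and 54.9 CPM against 3.25 and 1.99 CPM in the control and 6.31 and 8.00 CPM in dis3-1 (4.45 ± 0.22 against the control, 3.01 ± 0.20 against dis3-1). COS12, of the same family, was at 43.8 and 42.9 CPM against 5.47 and 3.76 CPM and 5.88 and 6.15 CPM in dis3-1. Both genes were higher in each rrp6 deletion library than in any library of the other 4 strains. YDR215C was at 56.7 and 62.4 CPM against 2.65 and 3.76 CPM (4.24 ± 0.11), but it was higher still in dis3-1 (77.1 and 75.2 CPM) and enp1-1 (144 and 138 CPM). NAT4, an acetyltransferase of histones, was at 44.7 and 45.6 CPM against 4.10 and 5.12 CPM (3.30 ± 0.089), and the helicase genes YRF1-6 and YRF1-3 of the Y′ telomere elements rose by 3.67 ± 0.36 and 3.34 ± 0.26, as near-identical copies of one family. Of 271 tested ORFs within 20 kb of a chromosome end 123 (45.4%) were higher and 70 (25.8%) lower (median 0.39). All tested ORFs were higher in 23.2% and lower in 49.5% of cases. Against dis3-1 78 (28.8%) were higher and 71 (26.2%) lower, beside 37.4% and 19.4% of all tested ORFs and 26.1% and 21.4% of all features. CYC7, the isoform of cytochrome c used under low oxygen, was among the largest falls of ORFs that overlap no other feature (2.09 and 2.59 CPM against 25.0 and 25.9 CPM, −3.44 ± 0.10).

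Genes of mating type identity differed between the strains. In haploid yeast the a-specific genes are on in a cells and the alpha-specific genes in alpha cells, while cells holding both mating types shut off both sets and also the haploid-specific genes, through a repressor formed by the a1 and alpha2 proteins. The pheromone gene MF(ALPHA)1 was at 0.239 and 0.555 CPM in the rrp6 deletion and 668 and 692 CPM in the control (−10.73 ± 0.092). The a-factor receptor gene STE3 was at 6.75 and 6.47 CPM and 248 and 232 CPM (−5.18 ± 0.067). All 4 alpha-specific genes were lower. Of the 7 a-specific genes 5 were higher than in the control and 1 lower (median 1.46; 6 and 0 with scaling on ORFs). MFA1, a pheromone gene, had a log2 fold change of 2.99 ± 0.42 and BAR1, the protease that degrades alpha-factor, of 1.22 ± 0.12. At the rrp6 deletion levels given below, MFA1 in the control lay near the floor of 3 counts per library. The same holds for MFA2 (1.93 ± 0.38), so the size of both rises is uncertain. STE2, the alpha-factor receptor gene, was not called and was at 8.36 and 9.06 CPM and 7.43 and 7.31 CPM, and at 351 and 354 CPM in dis3-1, 421 and 431 CPM in enp1-1 and 14.4, 15.6 and 13.3 CPM in csl4-ph. The a-pheromone genes MFA1 and MFA2 were at 2.39 and 1.42 CPM and 1.37 and 0.801 CPM in the rrp6 deletion against 63.0 and 65.6 CPM and 142 and 134 CPM in dis3-1. Relative to dis3-1 6 of the 7 were lower (median −5.07), with log2 differences of −5.34 ± 0.083 for STE2 and −2.95 ± 0.082 for BAR1, and relative to csl4-ph 6 were lower with a median of −0.73.

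Most haploid-specific genes were lowest in the rrp6 deletion among the strains compared. Of 12 tested 11 were lower than in the control and 0 higher, beside 35.6% and 30.5% of all features. The median was −2.79, or −2.79 with groups at 0 counts placed at the floor. Against dis3-1 10 were lower and 0 higher (21.4% and 26.1% of all features), and against enp1-1 11 and 0 (31.7% and 30.5%). Against csl4-ph 9 were lower and 1 higher (32.9% and 33.3%). RME1, which represses entry into meiosis, was at 6.81 and 6.04 CPM in the rrp6 deletion, 109 and 108 CPM in the control, 95.8 and 101 CPM in dis3-1 and 80.3 and 79.7 CPM in enp1-1 (−4.07 ± 0.068 against the control). FUS3, the kinase of the pheromone pathway, was at 7.40 and 7.46 CPM, 73.8 and 78.6 CPM, 93.8 and 92.5 CPM and 118 and 114 CPM in the same order (−3.36 ± 0.045). At both genes, and at GPA1, STE4, STE5, STE18, HO and NEJ1, the rrp6 deletion libraries lay below every library of the other 4 strains. The G protein genes STE4, STE18 and GPA1 were lower than in the control, with log2 fold changes of −2.79 ± 0.056, −3.60 ± 0.22 and −1.68 ± 0.038, and the scaffold gene STE5 was at −2.79 ± 0.052. NEJ1, a factor of DNA end joining, and HO, the endonuclease that switches mating type, were at log2 fold changes of −1.32 ± 0.17 and −0.65 ± 0.044, HO being at 109 and 109.5 CPM in dis3-1. HMRA1, the entry for the a1 transcript, was at 24.8 and 22.5 CPM in the rrp6 deletion and at 0 counts in the control, at least 83.1-fold higher with the control at its floor of 3 counts per library, and at 11.6 and 13.3 CPM in dis3-1. HMLALPHA1 and HMLALPHA2, the entries for alpha1 and alpha2, were at 6.15 and 5.85 CPM and 79.4 and 79.5 CPM in the rrp6 deletion, at 73.0 and 78.7 CPM and 277 and 254 CPM in the control and at 0 and 0.0640 CPM and 24.4 and 26.6 CPM in dis3-1. Both were thus lower than in the control, by log2 fold changes of −3.66 ± 0.21 and −1.74 ± 0.053, and above dis3-1. Both lie on chromosome III, where the median ORF was at −1.27 against the control, and the part of that offset was not tested. These entries share their sequence with the mating type locus, and the copies cannot be told apart. In bulk RNA fewer cells of a type and less RNA per cell cannot be told apart, and the part of mating type in the other differences was not tested.

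**Figure D5:**
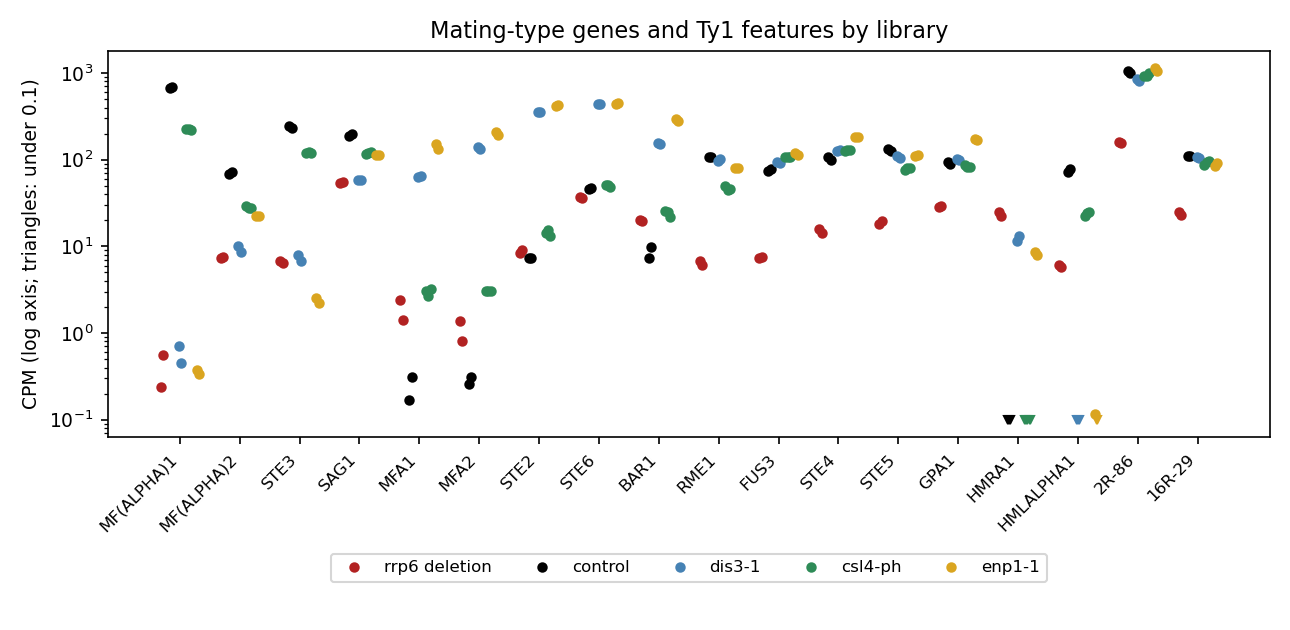
CPM on a log axis (y axis) of alpha-specific, a-specific and haploid-specific genes, mating type entries and 2 features at Ty1 repeats (x axis) in each library of 5 strains, 1 point a library, with values under 0.1 drawn as triangles. The rrp6 deletion is the lowest strain at RME1, FUS3, STE4, STE5 and GPA1 and at both Ty1 features.

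The operator letters TGTNNNNNNNTACATCA, a core of the site bound by a1 with alpha2, were searched on both strands in the 600 bases before each ORF, and they are shown for the haploid-specific genes that hold them. Capitals mark TGT and TACATCA, with 4 bases of flank on either side (RefSeq R64).
RME1 (chrVII:584275-584299, minus strand): gagaTGTcacagatTACATCAaaag
NEJ1 (chrXII:675585-675609, plus strand): tccaTGTaaaaaaaTACATCAatca
HO (chrIV:48432-48456, minus strand): atcaTGTtattattTACATCAacat
HO (chrIV:48600-48624, plus strand): atcgTGTatttagtTACATCActtt
The letters were found before 3 of the 12 haploid-specific genes and before 21 of 5879 ORFs (0.357%). Of these 21 ORFs 11 were lower and 4 higher than in the control, shares close to the 49.5% lower and 23.2% higher among all tested ORFs.

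Some features at Ty1 retrotransposon repeats were lower in the rrp6 deletion than in the other 4 strains. The feature 2R-86 (chrII:221282-221552) was at 158 and 154 CPM in the rrp6 deletion, 1043 and 999.6 CPM in the control, 850.1 and 810.5 CPM in dis3-1 and 1133 and 1066 CPM in enp1-1 (−2.71 ± 0.058 against the control). The feature 16R-29 (chrXVI:62663-63035), over repeats of Ty1 and Ty2 beside a Ty1 element, was at 25.1 and 22.8 CPM, 111 and 109.8 CPM, 107 and 105 CPM and 85.2 and 92.5 CPM in the same order (−2.21 ± 0.069). Against dis3-1 their log2 differences were −2.41 ± 0.058 and −2.14 ± 0.068. The fall was not shared by all. Of 74 tested features on a Ty1 element or long terminal repeat 12 were lower and 30 higher than in the control. All features were 35.6% lower and 30.5% higher in that contrast. Against dis3-1 35 of the 74 were lower and 3 higher, beside 21.4% and 26.1% of all features. Against csl4-ph 35 were lower and 8 higher (32.9% and 33.3% of all features), and against enp1-1 19 and 25 (31.7% and 30.5%). Copies of Ty1 are near-identical, so reads may be divided among them.

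The direct contrasts show where the rrp6 deletion stood apart from other mutants rather than from the control. Against dis3-1 2761 features (26.1%) were higher and 2260 (21.4%) lower, 55.0% of calls higher, which became 43.1% with scaling on ORFs. Of the 87 CUTs that overlap no other feature, 5 were higher and 13 lower than in dis3-1, with a median of −0.07. Entries of snoRNAs were higher than in dis3-1 in 40 of 57 cases and lower in 2 (median 0.82). For example snR76 was at 105 and 110.0 CPM in the rrp6 deletion and 19.6 and 19.1 CPM in dis3-1 (2.48 ± 0.092), and snR85 at 116 and 101 CPM and 31.8 and 32.1 CPM (1.77 ± 0.077). The 6 spliceosomal RNAs were all higher than in dis3-1, and ribosomal protein genes were higher in 126 of 137 and ribosome biogenesis genes in 73 of 77 cases. MTR4 was at 270.4 and 267 CPM in dis3-1, so that the rrp6 deletion was 0.90 ± 0.022 relative to it on the log2 scale.

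Against csl4-ph 3519 features (33.3%) were higher and 3476 (32.9%) lower, 50.3% of calls higher, or 40.2% with scaling on ORFs. The labels of csl4-ph replicate 1 describe oligo d(T) selection although its title says ribo-depleted, and ORFs on chromosome XIV had a median of −0.29 in this contrast, apart from the other chromosomes. Of the 57 snoRNAs 45 were higher and 2 lower than in csl4-ph, of the 77 ribosome biogenesis genes 73 and 2, and of the 10 histone genes 10 and 0. Against enp1-1 3217 features (30.5%) were higher and 3347 (31.7%) lower. NUTs across snoRNA or small nuclear RNA genes were higher in 53 of 55 cases and lower in 0 than in enp1-1 (median 1.37), for example NUT0805 at 137 and 137 CPM in enp1-1. Their counts were 31 higher and 11 lower against dis3-1, and 27 higher and 15 lower against csl4-ph.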

How the data were processed

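Ribo-depleted RNA was sequenced as stranded paired reads, per the labels' protocols. The deposited table holds estimated counts per feature, and the submitters' processing notes name Salmon 0.12.0, Trimmomatic 0.39, bedtools, DESeq and DESeq2 1.26.0 and sacCer3; whether counting used strand is not given in the sources used here. The authors' estimated counts were rounded, filtered (filterByExpr) and scaled by TMM, and 13 libraries of 6 groups were fitted together in edgeR 4.0.16 (R 4.3.3, quasi-likelihood test, Benjamini-Hochberg adjusted p under 0.05). No test was paired. The estimates of each library sum to 12795066 to 32142495, so that 3 counts are 0.0866 to 0.313 CPM; these floors cover counting error only.

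Named features were list members, or those with the largest changes per class among called features of at least 10 CPM on average, or were added after their values were seen. Members and lists were chosen with earlier results of these data known. Alternatives were another scaling, DESeq2 1.42.0, no filter, other samples and overlapping features summed.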

Additional observations from a re-analysis of the deposited data

How the results depend on the processing

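Against the control 3224 features were higher and 3760 lower, and scaling on ORFs gave 4577 and 2471. Median-ratio scaling gave 3656 and 3333, DESeq2 3666 and 3316, and no filter 3215 and 3748. Leaving out each of the 4 libraries gave 2926 to 3023 higher and 3457 to 3551 lower. The fit with the replicate number as a block, on the compared groups alone, gave 2625 and 2995, beside 3140 and 3267 without the block; same-numbered libraries did not deviate together (correlation −0.0132), so the numbers were not shown to pair libraries. Chosen after seeing the data, the counts without chromosome III were 3148 and 3645, and those of features summed with their overlaps 4679 and 5028. Summing also moved the features lower than in dis3-1 to 4443 and lower than in csl4-ph to 5308. Without csl4-ph replicate 1 that contrast had 3415 higher and 3266 lower.

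Of 122 named features 99 kept direction and call against the control in every setting that gave a value, and 9 changed sign. With scaling on ORFs LSR1 went to 0.15, snR19 to 0.093, RRP46 to 0.26 and SKI6 to 0.30. Summed with overlapping features PAP2 went to 0.35, TIS11 to 1.60, URA8 to −0.94, snR190 to 1.02 and snR44 to 0.0030. Depth limits features near 3 counts per library. The 2 libraries a group, the all-or-nothing sharing of reads between overlapping features, and the differing markers, mating genes and chromosome III of the control limit every contrast with it.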
